A study of Mus musculus with 6 samples.

Results

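The 10 transcription factor genes described here are *T* (Brachyury), *Cdx1*, *Cdx2*, *Cdx4*, *Tbx6*, *Msgn1*, *Nkx1-2*, *Evx1*, *Sp5* and *Sp8*, which are known for their expression in the tail bud. They were taken by symbol from a table of 24207 loci, where each of the 10 genes had 1 locus to itself by name. RNA of 6 whole male mouse embryos at E9.5 (embryonic day 9.5) was sequenced, 3 *Smchd1*+/+ (wildtype) and 3 *Smchd1*MommeD1/MommeD1 (mutant). MommeD1 is a nonsense allele of *Smchd1*, a chromatin protein needed for X inactivation, and mutant embryos carry it in every cell. The embryos were given in the sample labels as C57Bl6/J x FVB/n, whereas the paper's text describes a backcross to another strain for its E9.5 RNA-seq embryos, and the table itself does not settle which applies. The values are FPKM (fragments scaled to the length of the transcript and the size of the library), so levels of different genes can be set side by side. The authors' table gives 1 value per genotype, pooled over its embryos. No spread between embryos could therefore be computed from these values, and no test was run. The table's own comparison statistics were not used here. The depth of each library is unknown, and every difference below is without a replicate check. The 10 genes were selected on the FPKM values of this same comparison, so that their direction is a description of the choice and not a finding. *Smchd1*, the mutated gene, was at 2.12 FPKM in mutants and 34.0 FPKM in wildtypes, which goes with the labels.

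The tail bud is the growing posterior end of the embryo, where progenitors that can form both spinal cord and paraxial mesoderm supply the lengthening body axis. Wnt and Fgf signals keep these progenitors, and *T* and the *Cdx* genes act downstream of them. *Cdx1*, *Cdx2* and *Cdx4* encode homeodomain proteins, relatives of *Drosophila* caudal, that regulate Hox genes and axial elongation. *Nkx1-2* marks the progenitors themselves, *Tbx6* and *Msgn1* direct them to presomitic mesoderm, and *Sp5* is a direct target of Wnt/beta-catenin signalling. Several of these genes are also active elsewhere at this stage, *T* in the notochord, *Cdx2* in the hindgut, *Evx1* in spinal interneurons and *Sp8* in the limb ridge and forebrain.

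All 10 factors were detected in both genotypes, at low to moderate levels, and all 10 were lower in mutant embryos. Their levels ranged from 2.93 to 14.4 FPKM in wildtype embryos, with a median of 6.22 FPKM. In mutant embryos the range was 1.19 to 5.70 FPKM, with a median of 2.96 FPKM. Summed over the 10 genes, 29.4 FPKM in mutant embryos stood against 67.9 FPKM in wildtype embryos, which is 43.3% of the wildtype sum. The sizes of the difference were unequal, from 29.4% of the wildtype level for *Cdx4* to 83.0% for *Sp8*. In bulk RNA of whole embryos, fewer cells that express a gene and less RNA per cell cannot be told apart.

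**Figure D1:**
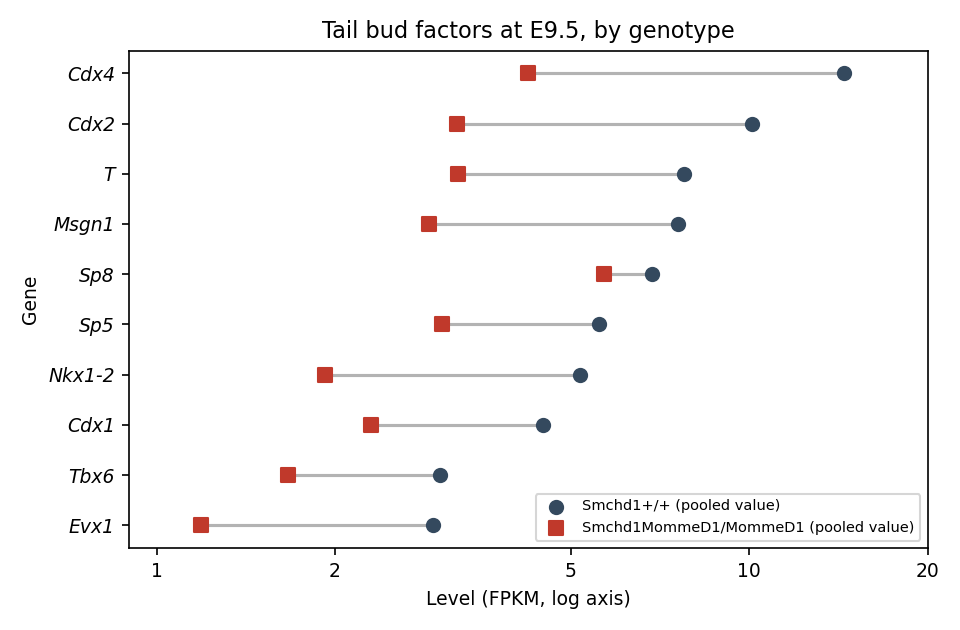
Level of each tail bud factor in FPKM (log axis) in wildtype (circles) and mutant (squares) embryos, 1 pooled value per genotype, ordered by wildtype level. Every square lies to the left of its circle, with the widest gap for Cdx4 (4.24 against 14.4 FPKM) and the narrowest for Sp8 (5.70 against 6.86 FPKM).

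*Cdx4* and *Cdx2* were the most abundant of the factors in wildtype embryos and differed most. *Cdx4* (X chromosome, 103321263 to 103331338 of MM10) was at 4.24 FPKM in mutants and 14.4 FPKM in wildtypes. Its log2 ratio of mutant over wildtype was -1.74, with 0.1 FPKM added to each value, as in all log2 ratios given here. *Cdx2* (chromosome 5, 147300493 to 147307249) was at 3.22 and 10.1 FPKM, a log2 ratio of -1.62. These were the lowest shares of the wildtype level, at 29.4% for *Cdx4* and 31.8% for *Cdx2*. *Cdx1*, on chromosome 18, was at 2.30 FPKM in mutants and 4.49 FPKM in wildtypes, a log2 ratio of -0.94, and so differed least of the 3. The 3 genes together reached 9.75 FPKM in mutants and 29.0 FPKM in wildtypes, and the mutant sum was 33.6% of the wildtype sum. *Cdx4* supplied 43.5% of it in mutant and 49.7% in wildtype embryos.

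*T* and the mesoderm factors downstream of it did not all differ to the same extent. *T*, on chromosome 17 from 8434423 to 8442496, encodes the T-box protein needed for posterior mesoderm and notochord and was at 3.23 FPKM in mutants and 7.75 FPKM in wildtypes, a log2 ratio of -1.24. *Msgn1*, which encodes a bHLH protein of the presomitic mesoderm, lies on chromosome 12 from 11206684 to 11208981. It was at 2.88 and 7.57 FPKM, a log2 ratio of -1.36. The T-box gene *Tbx6* (chromosome 7, 126781483 to 126785548) was at 1.67 and 3.0 FPKM, a log2 ratio of -0.81. *Msgn1* and *T* thus stood at 38.1% and 41.6% of their wildtype levels, and *Tbx6*, which shares the presomitic mesoderm with *Msgn1*, at 55.6%.

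*Nkx1-2*, the homeobox gene of the progenitors and the adjoining neural plate, was among the genes with the lower ratios. It lies on chromosome 7 from 132594684 to 132599709 and was at 1.92 FPKM in mutants and 5.18 FPKM in wildtypes, a log2 ratio of -1.38. *Evx1*, the relative of *Drosophila* even-skipped next to the HoxA cluster, was the least abundant factor in both genotypes. Its locus on chromosome 6, from 52308389 to 52318378, was at 1.19 and 2.93 FPKM, a log2 ratio of -1.23. That locus also spans the antisense gene *Evx1os*, which the table lists under its older name *5730457N03Rik* at 1.07 and 2.29 FPKM (log2 ratio -1.03). The libraries were nondirectional, so reads from *Evx1* and its antisense partner cannot be told apart where they overlap. For *Nkx1-2* the annotation has an antisense gene, *Gm16764*, and a same-strand protein-coding gene model, *Fgfr2*, that overlap it.

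The Sp-family zinc finger genes *Sp5* and *Sp8* stood apart from each other. *Sp5* (chromosome 2, 70474923 to 70477856) was at 3.03 FPKM in mutants and 5.58 FPKM in wildtypes, a log2 ratio of -0.86. *Sp8* (chromosome 12, 118843160 to 118852656) was at 5.70 and 6.86 FPKM, a log2 ratio of -0.26. *Sp8* was thereby the factor nearest to its wildtype level.

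The order of the levels was not the same in both genotypes. In wildtype embryos it ran *Cdx4*, *Cdx2*, *T*, *Msgn1*, *Sp8*, *Sp5*, *Nkx1-2*, *Cdx1*, *Tbx6*, *Evx1* from the highest to the lowest. In mutant embryos *Sp8* stood first, followed by *Cdx4*, *T*, *Cdx2*, *Sp5*, *Msgn1*, *Cdx1*, *Nkx1-2*, *Tbx6* and *Evx1*. Without a spread between embryos it cannot be said which neighbours in these orders differ. *T* and *Cdx2* were nearly level in mutant embryos (3.23 and 3.22 FPKM), as were *T* and *Msgn1* in wildtype embryos (7.75 and 7.57 FPKM). The highest value in mutant embryos, 5.70 FPKM for *Sp8*, lay below 5 of the 10 wildtype values.

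Set among all loci whose 2 genotypes averaged at least 1 FPKM, which numbered 12463 and held all 10 factors, the factors lay mostly at the lower edge. A log2 ratio of -1 or below (a 2-fold or larger difference) was reached by 6 of the 10, namely *Cdx4*, *Cdx2*, *Nkx1-2*, *Msgn1*, *T* and *Evx1*, against 0.514% of all these loci. With 1 FPKM added in place of 0.1, *Evx1* was at -0.84 and no longer among them. Since the choice of the factors used this comparison, nothing is read from the contrast of these shares. The median log2 ratio was -1.24 for the factors and -0.01 for all 12463 loci, of which 51.8% were below 0. Among the 4511 loci of similar abundance, with a mean of 2 to 10 FPKM, 0.532% were at -1 or below. Ranked from the lowest ratio, *Cdx4* was at place 12, *Cdx2* at 15, *Nkx1-2* at 30, *Msgn1* at 34, *T* at 40, *Evx1* at 42, *Cdx1* at 69, *Sp5* at 80, *Tbx6* at 91 and *Sp8* at 934. The places above *Cdx4* were held in part by small RNA loci. Counting only named loci of at least 200 bp, which numbered 11968, *Cdx4* was at place 9 and *Cdx2* at 11.

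**Figure D2:**
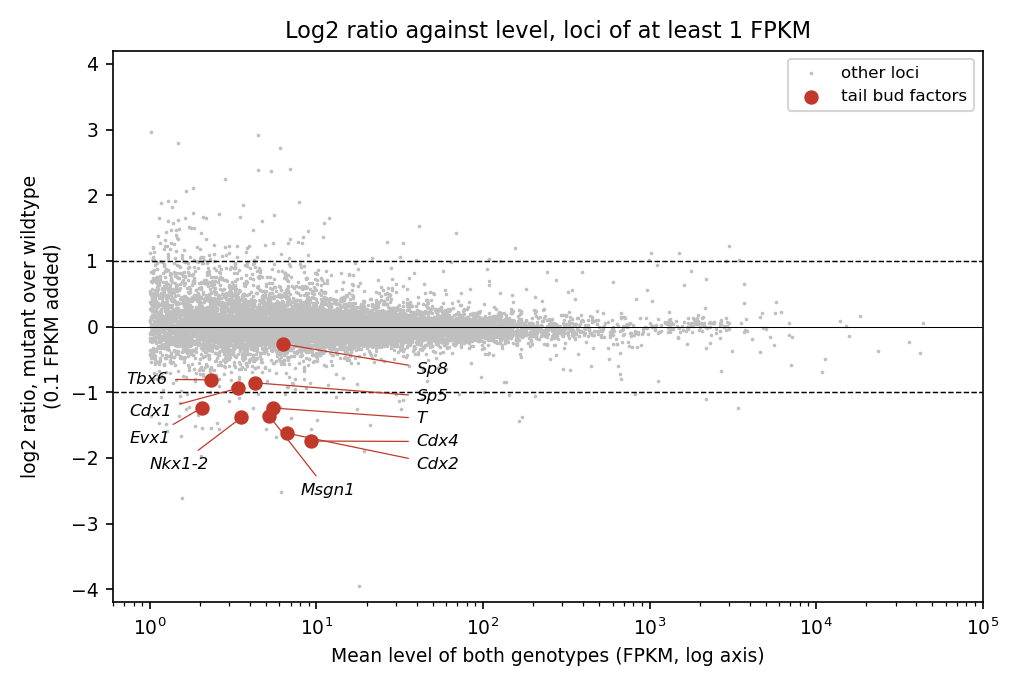
Log2 ratio of mutant over wildtype (0.1 FPKM added) against the mean level in FPKM (log axis) for all loci averaging at least 1 FPKM, with the tail bud factors in red and dashed lines at 2-fold. The factors lie from -0.26 (Sp8) to -1.74 (Cdx4), and 10 loci beyond a log2 ratio of 4 in size are outside the axis.

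The 300 bases around the annotated start site of each factor (250 before, 50 from the start) were searched for motifs of the pathway, since factors of the Wnt, Cdx and T-box families are known to act on one another's genes. Windows were at hand for 9 of the 10 factors, and not for *Cdx1*. *Sp8* had 3 windows. For 4 of the 9 the RefSeq start site was also the 5′ end of the locus in the table. The 5 windows below come from RefSeq (GRCm38.p6, which is MM10), written 5′ to 3′ on the gene's strand. *Cdx4* and *Cdx2* are shown because they differed most, and *T*, *Msgn1* and *Sp5* because their windows held the most of the matches marked here. Capitals mark a TCF/LEF core (CTTTGA or CTTTGT), a CDX core (TTTATNG) or a T-box site (AGGTGTNA) on either strand. None of the marked matches overlapped another.
Cdx4, chrX:103321148-103321447, plus strand: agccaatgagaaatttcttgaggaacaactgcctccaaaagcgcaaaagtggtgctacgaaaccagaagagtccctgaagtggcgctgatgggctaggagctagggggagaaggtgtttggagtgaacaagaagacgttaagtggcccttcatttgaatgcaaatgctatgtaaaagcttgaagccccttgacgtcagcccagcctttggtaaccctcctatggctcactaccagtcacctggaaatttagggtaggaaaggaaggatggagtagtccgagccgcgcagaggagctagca
Cdx2, chr5:147307200-147307499, minus strand: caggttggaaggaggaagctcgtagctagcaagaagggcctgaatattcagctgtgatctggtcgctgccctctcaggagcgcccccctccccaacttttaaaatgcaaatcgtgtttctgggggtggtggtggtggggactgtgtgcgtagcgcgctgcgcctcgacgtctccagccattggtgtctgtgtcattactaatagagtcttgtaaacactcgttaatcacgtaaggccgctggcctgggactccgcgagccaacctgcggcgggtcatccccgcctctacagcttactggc
T, chr17:8434173-8434472, plus strand: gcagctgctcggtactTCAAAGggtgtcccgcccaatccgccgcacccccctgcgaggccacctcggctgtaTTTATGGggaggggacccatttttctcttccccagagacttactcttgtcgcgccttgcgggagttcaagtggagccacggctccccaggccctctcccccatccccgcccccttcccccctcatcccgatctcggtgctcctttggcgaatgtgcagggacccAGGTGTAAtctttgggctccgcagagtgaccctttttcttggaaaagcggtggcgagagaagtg
Msgn1, chr12:11208899-11209198, minus strand: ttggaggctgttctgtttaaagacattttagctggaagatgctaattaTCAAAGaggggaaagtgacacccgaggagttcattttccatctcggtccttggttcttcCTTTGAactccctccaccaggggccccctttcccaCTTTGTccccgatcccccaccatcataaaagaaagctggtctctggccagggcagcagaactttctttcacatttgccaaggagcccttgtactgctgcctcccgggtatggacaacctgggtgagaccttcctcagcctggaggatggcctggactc
Sp5, chr2:70474673-70474972, plus strand: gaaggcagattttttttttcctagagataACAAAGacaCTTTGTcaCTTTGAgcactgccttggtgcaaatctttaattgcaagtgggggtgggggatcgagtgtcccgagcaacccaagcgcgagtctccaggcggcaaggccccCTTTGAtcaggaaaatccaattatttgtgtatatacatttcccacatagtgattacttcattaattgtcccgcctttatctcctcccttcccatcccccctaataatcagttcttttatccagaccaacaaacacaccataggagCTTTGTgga

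The *Sp5* window held the most marked matches. CTTTGA stood there 2 times and CTTTGT 3 times, 3 of these 5 within the stretch from 221 to 204 bases before the start. *Msgn1* had CTTTGA 202 and 143 bases before its start and CTTTGT 108 bases before it. *T* had CTTTGA 234 bases, a CDX core 178 bases and a T-box site 14 bases before its start. The *Cdx4*, *Cdx2* and *Nkx1-2* windows, of the genes with the lowest ratios, held none of these 4 motifs. Counted per window, CTTTGA was in 4 of the 11 windows of the factors (*Msgn1*, *Sp5*, *T* and 1 of *Sp8*) and in 16% of 32851 windows of all genes, and CTTTGT in 2 of 11 (*Msgn1* and *Sp5*) and in 18.7% of all. The CDX core was in 5 of 11 (*Evx1*, *T*, *Tbx6* and 2 of *Sp8*) and in 10.9% of all, and the T-box site in 1 of 11 (*T*) and in 3.03% of all. The GC box GGGCGG, the motif of Sp proteins, was in 3 of 11 (*Nkx1-2*, *T* and 1 of *Sp8*) and in 35.7% of all. Such matches of short motifs are a description of the sequence and not of binding, and the windows leave out distal enhancers.

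In structure the factors are small genes. The median over the 10 loci was 7416 bp, against 27739 bp over loci of at least 1 FPKM matched to GENCODE M21 by symbol. The longest transcript of each had a median of 3 exons (1 in *Msgn1*, 8 in *T* and *Tbx6*) against 8 exons over those loci. Their transcripts were also shorter, at a median of 2073 bases against 3434, and had a GC content of 58.3% against 49.9% (medians).

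The loci around the factors were compared next, to see whether the lower levels extended to their neighbours. The 10 factors lie on 8 chromosomes. Within 500 kb of them, 104 loci passed 1 FPKM, with 48 lower and 56 higher in mutant embryos and a median log2 ratio of 0.02. Among all 12463 loci, 51.8% were lower. The region of *Tbx6* alone supplied 39 of the 104, 11 lower and 28 higher, and so weighs heavily in these counts. That of *Evx1* supplied 18, 11 lower and 7 higher. Of the 104 loci, 2 were at -1 or below, beside 0.514% of all 12463 loci, and 1 (*Coro1a*, near *Tbx6*) was at 1 or above, beside 0.979%. Around *Cdx4*, the 5 loci ranged from -0.24 to 0.99, and the nearest, *Chic1*, was at 1.91 FPKM in mutants and 2.26 FPKM in wildtypes. Around *Cdx2*, the 8 loci ranged from -0.19 to 0.12, among them *Polr1d* at 165 and 174 FPKM. *T* had 7 neighbours from -0.20 to 0.46 and *Nkx1-2* had 8 from -0.37 to 0.45. At *Msgn1* all 3 were lower, with *Vsnl1* at 1.57 and 2.47 FPKM as the lowest (log2 ratio -0.62). Both neighbours at -1 or below lay near *Evx1*. They were *Evx1os* and *2700086A05Rik*, a noncoding RNA gene of the HoxA cluster (RefSeq *Hoxaas3*), which was at 3.86 and 10.3 FPKM. Its log2 ratio was -1.39. Between it and *Evx1*, the loci *Hoxa11*, *Hoxa11as*, *Hoxa10* and *Hoxa9* had log2 ratios of 0.68, 0.58, 0.50 and 0.04, and *Hoxa7* of -0.22.

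**Figure D3:**
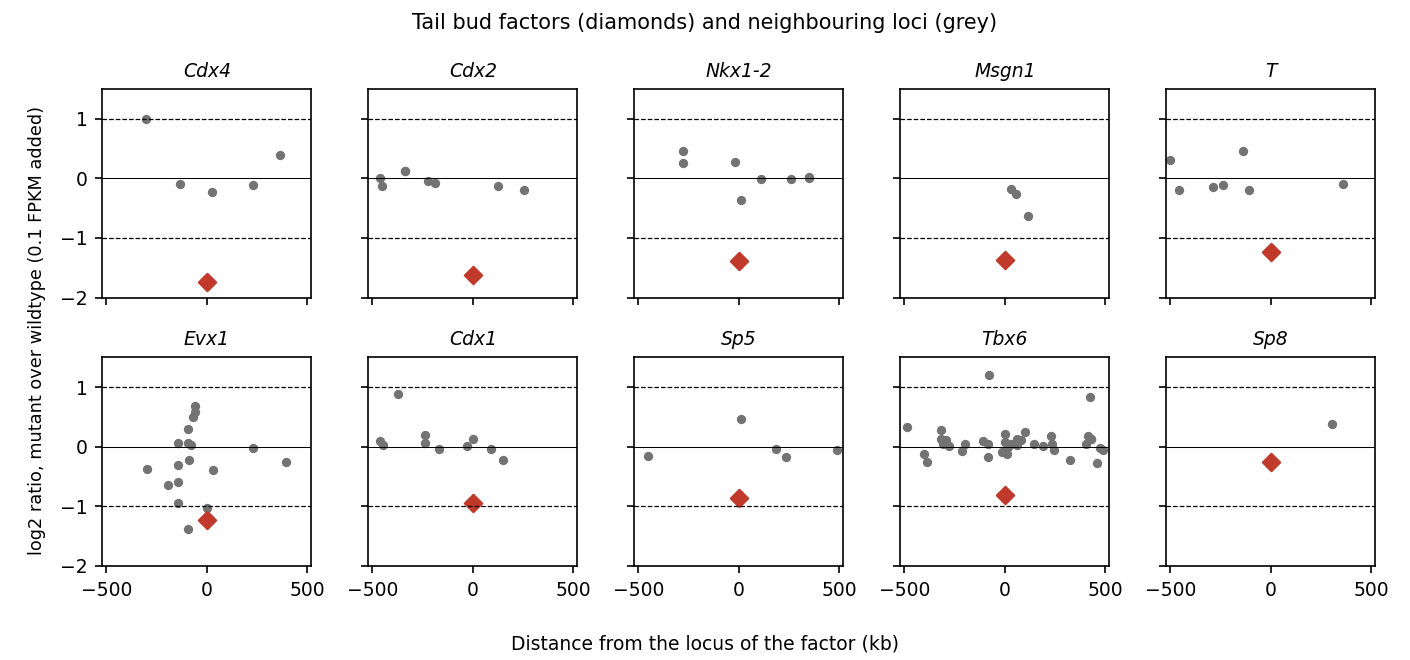
Log2 ratio of mutant over wildtype (0.1 FPKM added) of each factor (diamond) and of all other loci of at least 1 FPKM within 500 kb (grey), by distance in kb. Apart from 2 loci near Evx1, all lower neighbours lie between 0 and the lower dashed line at 2-fold.

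Most of the genes of tail bud signals and progenitor maintenance, which act with the factors, were below their wildtype level. Of 18 genes, 14 passed 1 FPKM, and 13 of these 14 were below 0, beside 51.8% of all 12463 loci. None of them was at -1 or below, beside 0.514% of all. Their median log2 ratio was -0.24, beside -0.01 for all these loci. *Lin28a*, an RNA-binding protein of early progenitors, was at 94.9 FPKM in mutants and 171 FPKM in wildtypes (log2 ratio -0.85), and *Fgf3*, an Fgf ligand, had a log2 ratio of -0.70. *Cyp26a1*, which encodes the enzyme that clears retinoic acid from the tail bud, was at 4.89 and 7.29 FPKM (log2 ratio -0.57). The ligand genes *Wnt3a* (2.82 and 3.43 FPKM, log2 ratio -0.27) and *Fgf8* (5.57 and 6.65 FPKM, log2 ratio -0.25) lie upstream of *T*, the *Cdx* genes and *Sp5*. The log2 ratios of the latter ran from -1.74 to -0.86. RNA of whole embryos does not give the level of a ligand in the tail bud alone, and *Fgf8* is also a limb ridge marker. *Gdf11*, the ligand that promotes the change from trunk to tail, was the 1 gene above 0, at 0.33. *Wnt8a*, *Fgf4*, *Nodal* and *Tdgf1* did not reach 1 FPKM.

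Among the genes of presomitic mesoderm and somite boundaries, those that passed 1 FPKM had no common direction. Of 19 genes, 15 passed 1 FPKM, 6 lower and 9 higher, where 51.8% of all loci were lower. The median log2 ratio of the 15 was 0.04. The 4 genes below the filter were all lower in mutants. With a filter of 0.1 FPKM, which takes them in, the median was -0.09. The oscillating repressor gene *Hes7* was the 1 gene of these 15 at -1 or below, beside 0.514% of all loci. It was at 0.92 FPKM in mutants and 2.83 FPKM in wildtypes (log2 ratio -1.52), so that it passed 1 FPKM only through its wildtype value. The Notch ligand gene *Dll1*, a known target of *Tbx6*, was at 13.2 and 12.8 FPKM, and *Dll3* at 9.87 and 7.50 FPKM. Both are levels of the whole embryo and not of the presomitic mesoderm alone. *Mesp2* and *Ripply2*, which set the somite boundary, did not reach the filter, at 0.15 and 0.40 FPKM for *Mesp2* and 0.33 and 1.13 FPKM for *Ripply2*. *Mesp1* was at 0.02 and 0.33 FPKM and *Ripply1* at 0.59 and 0.94 FPKM. Some genes of the list that are active in formed somites had lower values in mutants, among them *Meox1* (21.9 and 24.9 FPKM) and *Tcf15* (16.2 and 19.3 FPKM). Others had higher ones, among them *Pax3* (10.8 and 9.52 FPKM), *Meox2* (4.09 and 3.89 FPKM) and *Uncx* (2.96 and 2.88 FPKM). The remaining lower genes of the 15, beside the 9 higher, were *Aldh1a2* (25.6 and 32.9 FPKM), *Foxc2* (8.52 and 10.5 FPKM) and *Foxc1* (8.62 and 9.18 FPKM).

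Genes of the Wnt/beta-catenin pathway, components and feedback genes together, had no common direction. Of 16 genes, 15 passed 1 FPKM, with 6 lower, 9 higher and a median log2 ratio of 0.02, where 51.8% of all loci were lower. None of the 15 was past 2-fold, beside 0.514% of all loci at -1 or below and 0.979% at 1 or above. *Axin2*, the feedback inhibitor, was at 15.6 FPKM in mutants and 15.1 FPKM in wildtypes, and *Lef1* and *Tcf7*, the nuclear partners of beta-catenin, had log2 ratios of -0.18 and -0.23. *Dkk1*, a secreted inhibitor, was the lowest at -0.48. Most of these genes are used in many tissues of the embryo.

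The Hox genes that the *Cdx* factors regulate were not lower as a group. Of 15 loci of posterior Hox genes (paralogue groups from Hox9 on), 10 passed 1 FPKM, with a median log2 ratio of 0.38. Of these 10, 9 were higher and *Hoxb9* was lower, where 51.8% of all loci were lower. Among the 9, *Hoxc11* (1.32 FPKM in mutants and 0.89 FPKM in wildtypes) passed only through its mutant value. *Hoxd13*, a gene of the posterior tip, was at 4.01 FPKM in mutants and 2.45 FPKM in wildtypes. The 14 loci of trunk Hox genes had a median of 0.07, 6 lower and 8 higher. The merged locus of *Hoxc6* and *Hoxc9* (14.5 and 12.5 FPKM) was counted in both lists.

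Relatives of the factors by sequence were lower in some cases and higher in others. Those that passed 1 FPKM stayed within 2-fold, as did nearly all of the 12463 loci. Of these loci, 51.8% were below 0, 0.514% at -1 or below and 0.979% at 1 or above. Of 15 other T-box family genes, 8 passed 1 FPKM, 4 lower and 4 higher, from *Tbx20* (log2 ratio -0.46) to *Tbx2* (0.55). *Eomes*, close to *T*, did not reach the filter, at 0.08 and 0.05 FPKM, nor did *Tbx15*, at 1.53 FPKM in mutants and 0.39 FPKM in wildtypes. Of the other 7 Sp genes, 5 passed, and these ranged from *Sp6* (log2 ratio -0.21) to *Sp2* (0.12). Among 8 homeobox relatives found in the table, 3 passed, of which *Gbx2* was at 5.17 and 6.84 FPKM. *Gbx1*, at 1.17 and 0.91 FPKM, passed only through its mutant value. *Pdx1* and *Gsx1*, the partners of *Cdx2* in the ParaHox cluster, did not reach the filter, at 0.08 and 0.06 FPKM for *Pdx1* and 0.76 and 0.17 FPKM for *Gsx1*.

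**Figure D4:**
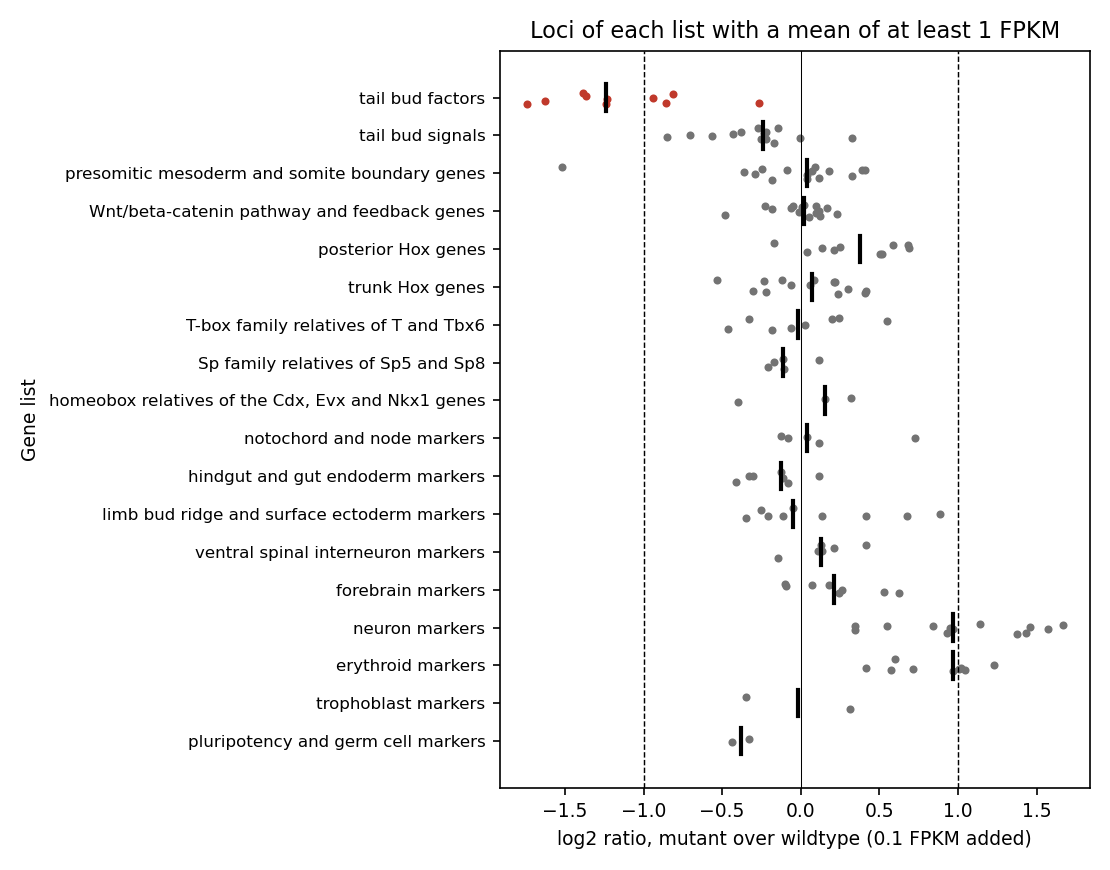
Log2 ratio of mutant over wildtype (0.1 FPKM added) of each locus averaging at least 1 FPKM in the tail bud factors (red) and 17 other gene lists (grey), with black bars at the medians and dashed lines at 2-fold. The factors have a median of -1.24, tail bud signals of -0.24, and neuron and erythroid markers of 0.97.

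Markers of the other tissues in which single factors are active were lower in some cases and higher in others. Those counted here that passed 1 FPKM stayed within 2-fold, which nearly all loci did. The gut marker *Spink1*, which was not counted, is given below. Among all 12463 loci, 0.514% were at -1 or below, 0.979% at 1 or above and 51.8% below 0. For the notochord, where *T* is also expressed, 5 of 7 markers passed 1 FPKM, with 2 lower, 3 higher and a median log2 ratio of 0.04. Among the 3, *Foxj1* (1.47 FPKM in mutants and 0.85 FPKM in wildtypes) passed only through its mutant value. *Shh*, the most abundant marker, was at 8.22 FPKM in mutants and 7.59 FPKM in wildtypes. *Noto*, which marks the posterior end of the notochord, was at 0.30 and 0.60 FPKM. For the hindgut and gut endoderm, where *Cdx2* is also expressed, 7 of 11 loci passed, with a median of -0.13. Of these 7, 6 were lower, beside 51.8% of all loci. None of these 7 was at -1 or below, beside 0.514% of all. The list also held *Spink1*, which is present only under its older symbol *Spink3* and so was not counted. It was at 1.76 FPKM in mutants and 10.5 FPKM in wildtypes (log2 ratio -2.51). *Cldn6* was at 34.8 and 46.3 FPKM and *Sox17* at 2.28 and 2.48 FPKM. *Foxa1*, *Foxa2* and *Shh* were counted for both notochord and gut, so the lists are not separate. Of 10 markers of limb ridge and surface ectoderm, 9 passed, 5 lower and 4 higher (median -0.05). The 5 were *Dlx6* (log2 ratio -0.35), *Fgf8*, *Sp6*, *Msx2* and *Dlx5*, and the 4 were *En1*, *Trp63*, *Krt14* and *Krt5* (0.89). *Krt14*, at 1.36 and 0.81 FPKM, passed only through its mutant value. The limb ridge gene *Sp9* did not reach the filter, at 0.72 and 0.31 FPKM. The 8 forebrain markers, a further site of *Sp8*, had a median of 0.21, and 5 of the 6 ventral spinal interneuron markers that passed were above 0 (median 0.13). *Evx2*, the neighbour of the HoxD cluster that is expressed like *Evx1*, did not reach 1 FPKM, at 0.11 and 0.19 FPKM. Trophoblast, another site of *Cdx2*, gave 2 markers of 8 above the filter, and *Prl3d1* and *Tpbpa* were listed at 0 in both genotypes. Both pluripotency and germ cell markers that passed were below 0 (*Kit* at -0.33, *Prdm1* at -0.44), and *Pou5f1* was at 0.34 and 0.56 FPKM.

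Markers of neurons and of red blood cells were higher in the same mutant embryos. All 13 neuron markers that passed 1 FPKM, of 14, were higher and 6 of them were at 1 or above, against 0.979% of all loci of at least 1 FPKM. Their summed level was 259 FPKM in mutants and 125 FPKM in wildtypes, with *Tubb3*, a tubulin of neurons, as the most abundant at 99.9 and 37.0 FPKM. All 9 erythroid markers were higher, 4 of them at 1 or above, with a sum of 12700.3 FPKM against 6014 FPKM and *Hba-x*, an embryonic globin, as the most abundant at 4602 and 2274 FPKM. The part of these markers in the lower level of the tail bud factors was not tested.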

How the data were processed

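RNA of 6 embryos, 3 of each genotype, was sequenced by the authors as nondirectional single-end libraries. Per the labels and the paper's methods, reads were aligned with TopHat2 2.0.6 (Bowtie2 2.0.2) to MM10 and compared with Cuffdiff 2.0.2. The deposited table gives each locus a single FPKM value for each genotype. Its sample names, Smchd1_M and Smchd1_P, were taken as mutant and wildtype from the study's own copy of the table, and the level of *Smchd1* goes with that. The table's columns of fold change, test statistic, p-value, q-value and significance are the authors' comparison and were not used. Depth per sample is not given in the sources used here.

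Log2 ratios of mutant over wildtype were computed with 0.1 FPKM added to each value, which understates the change of low genes. Loci averaging at least 1 FPKM were kept, and 2-fold was the limit for counts. Locus starts were counted from 1. With 1 value per genotype no test was run. Named genes were the 10 factors, *Smchd1*, the 10 named loci with the lowest ratio, members of 17 gene lists, and loci within 500 kb of a factor. The factors and lists were chosen with earlier results of these data known. Alternatives varied the added value, the filter, the scaling and the limit. The steps were tested on simulated data. Python 3.11.15, numpy 2.4.6, pandas 2.3.3 and matplotlib 3.10.9 were used, with RefSeq promoter windows (GRCm38.p6) and GENCODE M21 transcripts.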

Additional observations from a re-analysis of the deposited data

How the results depend on the processing

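The direction of the factors was fixed by their choice and is not a sign of stability. Scaling both genotypes to the same total FPKM shifted all log2 ratios by 0.04, to the same total over named loci of at least 200 bp by -0.02, and centring on the median locus by 0.01. Alternatives were counted as different where a value moved by more than 0.17, the robust standard deviation of log2 ratios over all loci averaging 1 FPKM or more, or a count by more than 1.5 times. With 1 FPKM added, the median of the factors was -0.95, that of erythroid markers 0.78, and 0.329% of all loci were at -1 or below; 8 of the 10 factors then moved by more than 0.17, all but *Sp5* and *Sp8*, and *Evx1*, at -0.84, was no longer at -1 or below. Down to a mean of 0.1 FPKM, 0.914% of loci were that low and the gut endoderm median was -0.30. A limit of 1.5-fold took in 1.47% of loci. From a mean of 5 FPKM on, medians were -0.30 for gut endoderm, 0.41 for spinal interneuron, 0.43 for forebrain and -0.35 for trophoblast markers and -0.40 for the homeobox relatives, of which the interneuron, trophoblast and homeobox values are those of 1 gene each (*Dbx1*, *Hand1* and *Gbx2*). List medians changed sign in 7 of 126 alternatives, in 6 lists whose medians were at most 0.15 in size. Leaving out each embryo in turn was not possible with pooled values. No paired analysis was possible because the table holds 1 value per genotype and the labels number no replicates. The depth that limits low levels such as those of *Evx1* and *Tbx6* is unknown.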

Other observations

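The loci with ratios as low as those of the *Cdx* genes included genes of other tissues. Among named loci of at least 1 FPKM, the 10 lowest were *Mirlet7d*, *Snora33*, *Snora41*, *Snora69*, *Scarna8*, *Smchd1*, *Spink3*, *1700011H14Rik*, *Phlda2* and *Cdx4*. The first 5 are small RNA genes listed at 0 in mutant embryos. *Spink3*, the older symbol of the gut marker *Spink1*, encodes a secreted trypsin inhibitor. It was at 1.76 FPKM in mutants and 10.5 FPKM in wildtypes (log2 ratio -2.51). *Phlda2*, an imprinted gene that restrains placental growth, was at 8.14 and 30.5 FPKM (log2 ratio -1.89).

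Some genes outside this rule were picked after their values were seen. *Ttr*, the transthyretin gene of endoderm and liver, was at 2.48 and 7.51 FPKM (log2 ratio -1.56). *Etv2*, the ETS factor of early blood and endothelial progenitors, was at 1.05 and 2.84 FPKM (log2 ratio -1.35). *Cer1*, a secreted antagonist known from anterior endoderm and newly formed somites, was at 0.53 and 1.51 FPKM (log2 ratio -1.37), near the low end of the values counted.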
